A study of Equus caballus with 14 samples.

Results

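The 100 genes described here were the steadiest of the moderately abundant transcripts in equine corpus luteum, the gland that forms from the ovulated follicle and secretes progesterone. They were selected on measured values: among 8253 genes with a mean abundance from 10 to 500 CPM (read counts scaled to library size), none of them among the 100 most abundant, they had the lowest standard deviation (SD) of log2 CPM over all 14 libraries. The whole table held 30371 genes, of which 15437 had enough counts to be analysed. CPM values were scaled by TMM, a method that corrects library totals for differences in composition, and log2 values carried a prior count of 2.

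Luteal tissue was sampled through the vaginal wall of cycling light breed mares and sequenced as poly(A)-selected directional libraries. There were 4 libraries of non-pregnant mares at day 11 after ovulation (NP11), 4 of non-pregnant mares at day 13 (NP13), 4 of pregnant mares at day 11 (P11) and 2 of pregnant mares at day 13 (P13). The series enrolled 8 mares, and the titles name 6 mares and 8 glands. Kate and Emma each gave 4 libraries from 2 glands, Kiwi and Cornelia gave 2 from 1 gland, and Roanie and Gisela gave 1, both at day 11. All 6 day 13 libraries came from glands already biopsied at day 11, so day and repeat biopsy cannot be told apart. One gland of Kate carries a pregnant label at day 11 (P11 replicate 2) and a non-pregnant label at day 13 (NP13 replicate 1). The labels give neither the ages of the mares nor a treatment. Libraries of a mare are not independent. The smallest library held 20182039 counts and the largest 32186736.

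Relative measurements of a transcript, as in quantitative PCR, are read against reference genes whose own level is taken as constant, so a drifting reference passes its drift on to the target. The corpus luteum is a demanding tissue for this purpose, because its steroidogenic, vascular and immune cells change as the gland either regresses or is maintained by pregnancy. The geNorm method therefore judges candidates in pairs: 2 suitable references keep a constant ratio, and its stability value M is the mean SD of a gene's log2 ratio to each of the other candidates. The stated purpose of the series was to find genes with stable levels across pregnancy status and day.

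Genes carry Ensembl identifiers in the deposited counts, and 0 of these could be paired with a symbol. The members are therefore given by identifier, their functions and sequences are not described, and the tissue was not checked against marker genes.

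The member with the lowest spread was ENSECAG00000009007, with an SD of 0.0437 on the log2 scale and a mean of 27.2 ± 0.828 CPM (SD, n = 14). It stood at 27.2, 28.1, 28.0 and 26.8 CPM in the 4 NP11 libraries and at 28.3, 27.9, 26.7 and 28.6 CPM in the NP13 libraries. It stood at 25.7, 26.5, 27.1 and 26.7 CPM in the P11 libraries and at 26.5 and 27.2 CPM in the P13 libraries. The 4 groups overlapped, with the lowest value in a pregnant library and the highest in a non-pregnant one. ENSECAG00000013216 was next, with a log2 SD of 0.0454 and a mean of 68.9 ± 2.14 CPM (SD, n = 14). Its values were 67.8, 67.8, 71.3 and 68.2 CPM in NP11, 70.8, 64.3, 69.8 and 71.6 CPM in NP13, 70.8, 69.2, 65.2 and 69.4 CPM in P11, and 69.5 and 68.2 CPM in P13. Both its lowest value, in NP13 replicate 2, and its highest, in NP13 replicate 4, lay in the same group.

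ENSECAG00000014617 was the steadiest of the more abundant members (150 to 500 CPM), with an SD of 0.0469 at a mean of 319.9 ± 10.4 CPM (SD, n = 14). The libraries held 335.0, 310.4, 323.3 and 310.0 CPM in NP11, 309.5, 317.5, 330.0 and 318.2 CPM in NP13, 311.5, 327.1, 335.0 and 309.0 CPM in P11, and 332.8 and 308.5 CPM in P13. The highest values were those of Roanie (NP11 replicate 1) and Gisela (P11 replicate 3), and the groups overlapped fully. The members of rank 4 and rank 5 were ENSECAG00000024994, with an SD of 0.0534 and a range from 64.0 to 71.9 CPM, and ENSECAG00000023998, with an SD of 0.0537 and a range from 81.9 to 96.0 CPM. In the latter the top value, in NP11 replicate 2, stood apart from the other 13 libraries, which reached 90.4 CPM at most.

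Over the 100 members the SD of log2 CPM ran from 0.0437 to 0.0788 with a median of 0.0728, and the coefficient of variation of CPM had a median of 5.01%. The median SD over the 8253 genes of the abundance window was 0.189. The highest library exceeded the lowest by a factor of at least 1.086 and under 1.3 in every member, with a median of 1.18. The edge of the set was not a break. The last 2 members were ENSECAG00000011954 with an SD of 0.07875 and ENSECAG00000016684 with 0.07881, and the next 2 genes were ENSECAG00000019162 with 0.07883 and ENSECAG00000011151 with 0.07888. These differences were a small fraction of the SDs themselves.

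**Figure D1:**
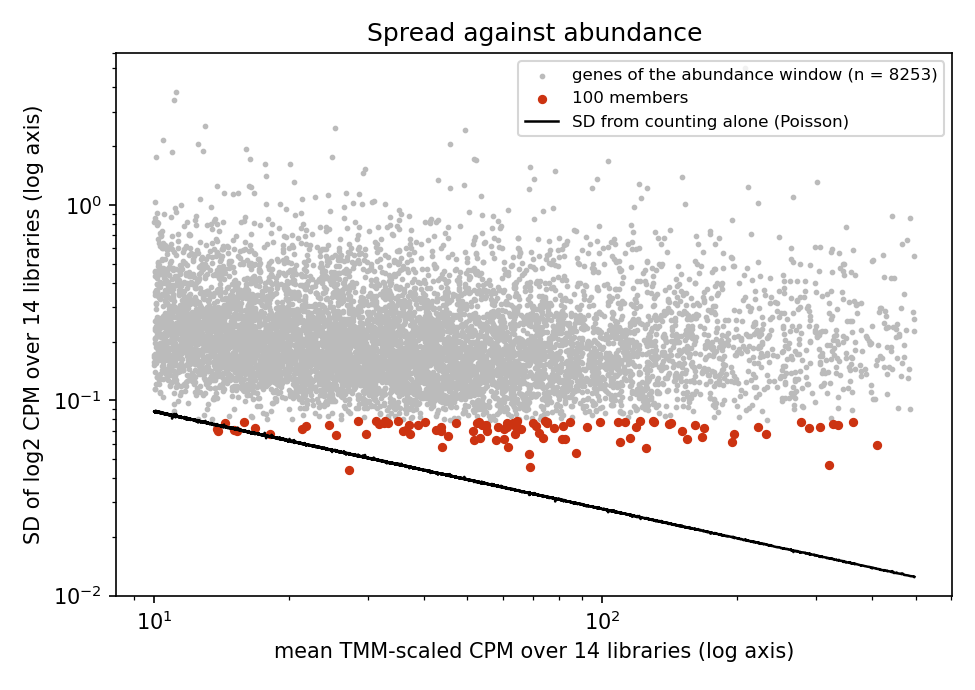
SD of log2 CPM over 14 libraries (log axis) against mean TMM-scaled CPM (log axis) for 8253 genes of the abundance window (grey), the 100 members (red) and the SD that Poisson counting alone gives at each mean (line). The members form the lower edge of the cloud, and ENSECAG00000009007, at 27.2 CPM, lies below the line.

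How much of the small spread was counting noise depended on abundance. Poisson counting alone gives a log2 SD that falls as counts rise, from 0.0748 for the least abundant member to 0.0137 for the most abundant. The observed variance of the members was 4.01 times the counting variance at the median, against 16.6 times over the window. In 97 of 100 members the Pearson chi-square of the counts per degree of freedom was above 1, the value counting alone gives on average, and in 86 it was above 1.72, the 95% point on 13 degrees of freedom. In the window 99.95% of genes were above 1 and 99.6% above 1.72. The steadiest genes thus still varied more than their counts required, in most cases.

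The exceptions were at low to moderate abundance. ENSECAG00000009007, with 589 to 864 raw counts a library, had a counting SD of 0.0533, so its observed variance was 0.674 times the counting variance. The least abundant member, ENSECAG00000010257, had an SD of 0.0710 at a mean of 13.8 CPM and a counting SD of 0.0748, a ratio of variances of 0.90. Its values lay between 12.6 and 14.9 CPM, and both bounds fell in non-pregnant libraries, NP11 replicate 4 and NP13 replicate 3. In 5 of 100 members the observed variance was at or below the counting variance, and in 16 counting made up more than 50% of it. Among all 8253 genes of the window only 58, or 0.703%, had such a share. At this depth a smaller spread of the transcript itself could not be seen in those members. The ratio of variances uses the spread that chose the members, and it is a description.

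At the other end stood abundant members. ENSECAG00000000737 had the highest mean, 410.6 ± 16.9 CPM (SD, n = 14), and an observed variance 18.8 times the counting variance. ENSECAG00000006949, with a mean of 361.5 CPM and a coefficient of variation of 5.53%, had the largest ratio, 27.8. Its values were 356.9, 348.6, 361.0 and 387.5 CPM in NP11, 358.9, 355.9, 336.7 and 415.1 CPM in NP13, 341.8, 374.3, 365.9 and 350.3 CPM in P11, and 354.3 and 353.5 CPM in P13. The 2 highest values, NP13 replicate 4 and NP11 replicate 4, were both from the second gland of Emma.

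The rule favoured abundant genes. When the window was cut by mean CPM into 5 bins of equal size, the members numbered 6, 6, 15, 37 and 36 from the lowest bin to the highest. The median counting SD went from 0.0768 to 0.0247 over the same bins, while the median observed SD went from 0.220 in the lowest to 0.171 and 0.179 in the upper 2. The median member had 63.5 CPM, and the median gene of the window 33.4 CPM. Ranked by the variance left after the counting variance was subtracted, 69 members stayed among the 100, and the numbers per bin became 20, 20, 18, 27 and 15. The excess SD of the members had a median of 0.0604 log2 units, against 0.182 in the window.

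The members held nearly the same small part of each library, from 0.872% to 0.985% of all counts. Their deviations from their own means averaged between -0.0125 (NP11 replicate 4) and 0.0278 (P11 replicate 2) log2 units per library. In P11 replicate 2 and P11 replicate 4, 68 of 100 members lay above their mean, and in NP13 replicate 2 only 36 did. A scale built from the mean of all 100 members would be 0.991 to 1.019 times the TMM scale, with the highest factor in P11 replicate 2. Scaled by library totals alone, the same averages ran from -0.0699 in NP13 replicate 1 to 0.0924 in P11 replicate 3, and the median SD of the members was 0.0907. Stability as measured here is therefore stability relative to the TMM scale.

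**Figure D2:**
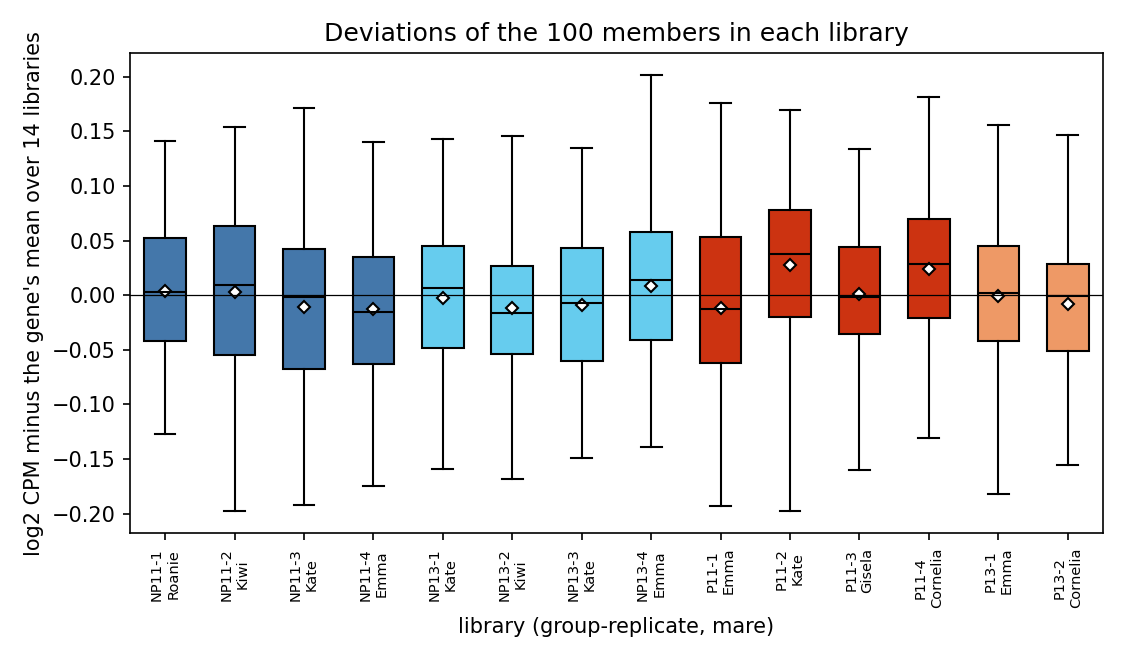
Log2 CPM minus the gene's mean over 14 libraries for the 100 members, by library (group, replicate and mare). Boxes span the quartiles, whiskers the lowest and highest member, and diamonds the mean, which is highest in P11 replicate 2 (0.0278) and P11 replicate 4 (0.0241).

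In pairs, the members kept steady ratios. The geNorm M of a member against the other 99 ran from 0.0828 in ENSECAG00000013216 to 0.108 in ENSECAG00000012143, with a median of 0.0985. The other 8153 genes of the window, set against the same 100 members, had a median of 0.202, and the 100 most abundant genes of the series 0.241. These values follow the rule, since a ratio of 2 steady genes is steady. The choice did not use the covariation of members. The SD of a pair's log2 ratio had a median of 0.0980 over 4950 pairs, beside 0.101 for the same pairs if each gene varied independently of the other. The Pearson correlation of a pair over the 14 libraries had a median of 0.02 and a mean of 0.0234. Among the members it was positive in 2614 pairs, or 52.8%, and above 0.5 in size in 418, or 8.44%. Over all pairs of window genes the median was 0.00107 and the mean 0.00413. A low average correlation, over libraries that share mares and the TMM scale, was thus not particular to the members. The first principal component of the members held 15.4% of their variance, and that of the window 24.6%. Genes were not scaled for this, so those with a high SD weigh most in the window.

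Stepwise removal of the member with the highest M left the pair ENSECAG00000017953 and ENSECAG00000016982, named here after the values were seen. They ranked 26 and 45 by SD, and the SD of their log2 ratio was 0.0470. The pairwise variation V, the SD of the log2 change in the combined reference when a further gene is added, was 0.0152 on adding the third gene, 0.00596 on adding the eleventh and 0.000844 on adding the last. The mean of that last pair nevertheless departed from the mean of all 100 members with an SD of 0.0588 over the libraries. On the TMM scale the 2 genes of the pair had SDs of 0.0672 and 0.0719, and the gene picked for the lowest SD had 0.0437. The value of 0.0588 is relative to the members, so it is not on the same scale as these. The combined mean of the first 3 genes by SD had an SD of 0.0226 on the TMM scale, that of the first 5 had 0.0165, that of the first 10 had 0.0237, that of the first 20 had 0.0167, and that of all 100 had 0.0128. The SD thus did not fall at each step, and 10 genes gave a higher value than 3 or 5. A pair picked for its constant ratio thus moved together against the rest of the set, which M alone does not show.

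The next comparison asked whether the members differed with pregnancy or day. The rule limits such differences, because a low SD over all libraries includes the groups, so they are a description. For pregnancy at day 11 the log2 differences of the members (P11 minus NP11) lay between -0.11 and 0.13. In P11 65 members were higher and 35 lower. That split is not separate from the average deviations per library, which were highest in P11 replicate 2 and P11 replicate 4. At day 13 (P13 minus NP13) the differences lay between -0.11 and 0.13, with 47 members higher and 53 lower. From day 11 to day 13 they lay between -0.11 and 0.15 in non-pregnant mares and between -0.15 and 0.12 in pregnant mares. The median size was 0.03 to 0.04 in the 4 comparisons, against 0.08 to 0.10 for the window and 0.12 to 0.15 for all genes tested. The comparisons share groups, so these values are not separate evidence. The largest difference in any of the 4 was 1.11-fold.

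edgeR's quasi-likelihood test on all 15437 genes called 0 members at an adjusted p of 0.05, beside 0% of all genes, in the 4 comparisons and in a joint test of the 4 groups. At an unadjusted p of 0.05 it called 0 members in all 5 tests, and the share of all genes was 4.13% for pregnancy at day 11, 2% for pregnancy at day 13, 2.69% between days without pregnancy, 2.23% between days with it and 2.77% for the joint test. DESeq2 called 0 members and 0.013%, 0%, 0.0453%, 0.0713% and 0.311% of all genes in the same order. With each gland as a block edgeR called 0 members, and 0.0259% of all genes between days without pregnancy and 0.0972% with it. The rule chose genes with a low SD over these same libraries, which limits their differences, so 0 calls among members was the likely outcome. The counts of members called are therefore a description and no test of their stability.

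The member with the largest difference with day in non-pregnant mares was ENSECAG00000010047. It was at 30.6, 30.9, 29.3 and 31.8 CPM in NP11 and at 32.3, 35.8, 33.8 and 34.4 CPM in NP13, so these 2 groups did not overlap. Of 100 members 1 had no such overlap, beside 94 genes, or 1.14%, of the window. In P11 this gene was at 32.8, 34.8, 32.1 and 33.3 CPM and in P13 at 33.3 and 33.7 CPM, within the NP13 range or just below it. The log2 difference between the days in non-pregnant mares was 0.15 ± 0.07 (SE), with a 95% interval from -0.00208 to 0.305 and an adjusted p of 1 in edgeR. Once group means were removed this gene had the rank 2 of 8253, against 94 over all libraries and 1056 with mare means removed. Within groups its spread was thus among the lowest of the window, and within mares it was not.

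The largest difference in pregnant mares was a lower level at day 13 in ENSECAG00000022848, of -0.15 ± 0.09 (SE) on the log2 scale with an interval from -0.337 to 0.0393. P11 libraries held 45.8, 44.4, 44.7 and 46.3 CPM, and P13 libraries 38.4 and 43.3 CPM, without overlap. Members without overlap between P11 and P13 numbered 8 of 100, beside 5.97% of the window. For this gene NP11 libraries held 43.2, 44.6, 44.5 and 45.8 CPM and NP13 libraries 43.5, 40.6, 41.6 and 44.1 CPM. The lowest value, 38.4 CPM, was that of Emma in P13, and the day 11 libraries alone put this gene first of the whole window. With pregnancy at day 11 the largest differences were 0.13 ± 0.08 (SE) in ENSECAG00000021791, at 33.5, 36.1, 30.5 and 33.0 CPM in NP11 and 34.6, 36.9, 36.4 and 37.2 CPM in P11, and -0.11 ± 0.07 (SE) in ENSECAG00000019385, at 66.6 ± 2.68 CPM in NP11 and 61.7 ± 3.26 CPM in P11 (SD, n = 4). In both genes the groups overlapped. Between P11 and NP11, 4 members and 1.39% of the window did not overlap, and between P13 and NP13, 12 members and 8.74%. None of the members named here passed the test.

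**Figure D3:**
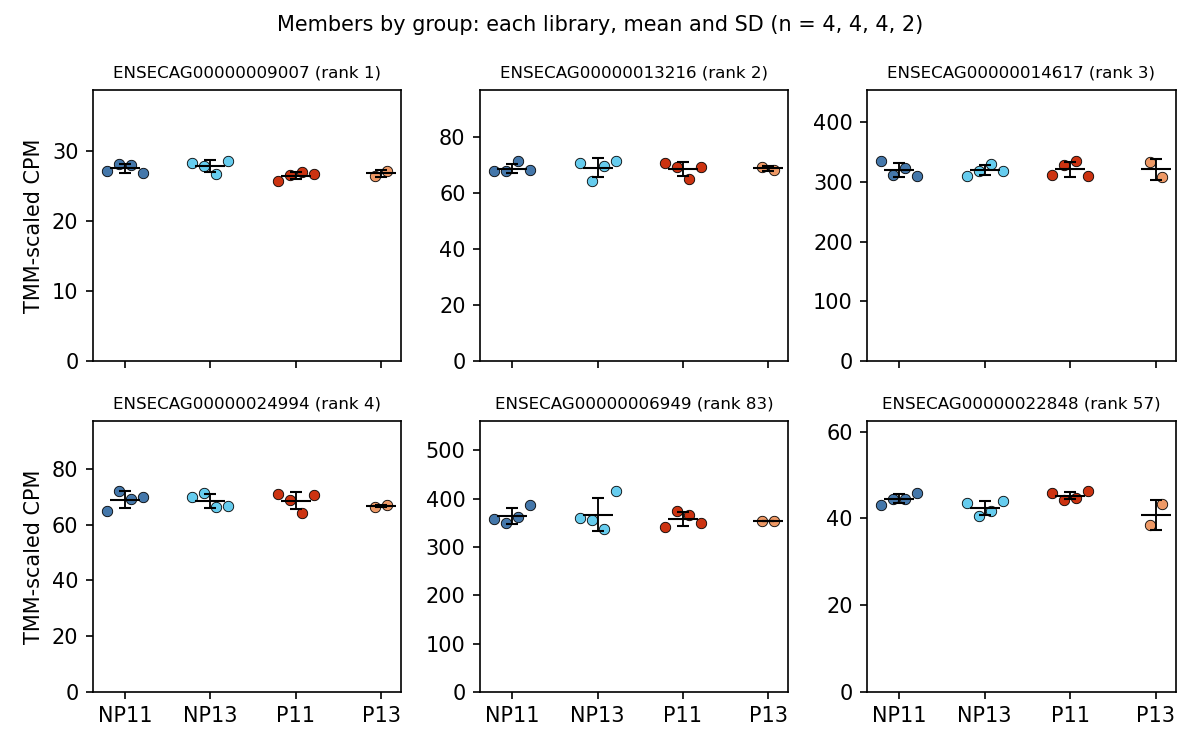
TMM-scaled CPM (linear axis from 0) of 6 members in every library by group, with group mean and SD (n = 4, 4, 4 and 2). The first 4 members overlap between all groups, ENSECAG00000006949 reaches 415.1 CPM in 1 NP13 library, and ENSECAG00000022848 falls to 38.4 CPM in 1 P13 library.

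The intervals of the differences are a description too, since a choice by low SD over the same libraries makes small differences and narrow intervals likely. In all 4 comparisons together, the 95% confidence interval of the difference stayed within 1.2-fold for 42 members and within 1.3-fold for all 100. For the 8253 genes of the window these shares were 0.8% and 18.7%. The interval at day 13 was the limiting one, since P13 has 2 libraries: within 1.2-fold there were 66 members in P13 against NP13 and 64 in P13 against P11, but 91 in P11 against NP11 and 95 in NP13 against NP11. edgeR draws the spread of a gene towards that of genes of like abundance. Its biological coefficient of variation for the members had a median of 10.4%, above their observed 5.01%. The intervals rest on a different estimate, the quasi-likelihood spread, which is drawn towards other genes as well. Their width is therefore not set by the members' own spread alone.

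Within a gland the 2 days could be compared directly in 6 glands. The change of a member from day 11 to day 13 had a median size of 0.0563 log2 units in the second gland of Emma, the smallest, and 0.0740 in the second gland of Kate, the largest. Over the window the median size in the 6 glands was 0.127 to 0.161. The rule limits these changes too, since the same libraries chose the members, so their size is a description. Members higher at day 13 numbered 68 in the second gland of Emma, 56 in the first of Emma, 53 in the second of Kate, 44 in Kiwi, 36 in the first of Kate and 32 in Cornelia. The balance went both ways, and no share of the window was counted beside it. It followed the average deviation of the members per library. That average went from -0.0125 to 0.00843 in the second gland of Emma and from 0.0241 to -0.00846 in Cornelia. A change over 0.2 log2 units occurred in 1 to 8 members a gland, with 8 in the first gland of Emma. ENSECAG00000003113 and ENSECAG00000024262 were higher at day 13 in 6 of 6 glands, by 0.06 and 0.04 log2 units on average. ENSECAG00000022848 and ENSECAG00000010511 were lower in 6 of 6, by -0.11 and -0.08. In the window 86 genes, or 1.04%, were higher and 169, or 2.05%, lower in all 6 glands, so 2 members in each direction are close to that background. One of the 6 glands is that of Kate with both status labels, and the 6 come from 4 mares.

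The sum of squares of a member's log2 CPM over the 14 libraries was divided between mares, glands of a mare and libraries of a gland. The rule chose a low SD over these same libraries, which limits differences between mares. The shares, and the SDs by month and group given after them, are therefore a description. If none of these made a difference, their degrees of freedom alone would give average shares of 38.5%, 15.4% and 46.2%. The members had median shares of 41.1% between mares, 12.3% between glands and 39.1% within glands. The share between mares was thus a little above that average, and the shares between and within glands were below theirs. These are medians beside averages, which can differ. In the window the medians were 61.9%, 7.17% and 27.0%. The 4 groups took up a median of 19.8% in the members and 14.3% in the window, where degrees of freedom alone give 23.1%. By biopsy month in the titles, the median SD of the members was 0.0704 in 10 June libraries and 0.0597 in 4 August libraries, and that of the window 0.188 and 0.154. Within groups the median SD of the members was 0.0696 in NP11, 0.0611 in NP13, 0.0682 in P11 and 0.0502 in P13, where it rests on 2 libraries.

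The choice of members and their spread come from the same 14 libraries, so the choice was repeated on some libraries and the spread read in the others. Chosen in the 8 non-pregnant libraries, 100 genes of the window had a median SD of 0.0561 there and of 0.115 in the 6 pregnant libraries. That was 0.612 times the median of the window in pregnant libraries, 0.188. Chosen in pregnant libraries, 100 genes went from 0.0485 to 0.114, beside 0.186 for the window. In both of these choices the spread of the chosen genes at least doubled outside the libraries that chose them, and stayed below that of the window. Of the 100 chosen in non-pregnant libraries, 37 were in the lowest 10% of the window by SD in pregnant libraries, 8 were among the 100 lowest there, and 5 were in the upper 50%. The choice on day 11 went from 0.0624 there to 0.103 at day 13, where the window had 0.175. The choice on day 13 went from 0.0458 to 0.124 at day 11 (window 0.199), and the choice on June libraries from 0.0643 to 0.0870 in August (window 0.154). These sets shared mares, and those by status or day also shared glands. Over these 5 choices the ratio to the window was 0.563 to 0.626.

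Leaving out a whole mare removes that link, but the unused spread is then read inside 1 mare. The SD in the libraries used also holds differences between mares, so the 2 SDs of such a choice are not alike. They do not show whether the level in that mare matched the level in the other mares. Chosen without Kate, 100 genes went from a median SD of 0.0621 to 0.0860 in the 4 libraries of Kate, where the window had 0.132. Chosen without Emma they went from 0.0643 to 0.0848 in Emma (window 0.138). For Kiwi and Cornelia, with 2 libraries each from 1 gland, the spread was lower in the unused libraries, at 0.0584 after 0.0680 and 0.0653 after 0.0693, and so was that of the window, at 0.103 and 0.109. Over the 4 omissions of a mare the chosen genes had 0.569 to 0.650 times the spread of the window. Over all 9 choices counting alone accounts for a median SD of 0.0334 to 0.0407 in the chosen genes and 0.0448 to 0.0502 in the window. The TMM scale and the window itself were computed from all 14 libraries. When single libraries were left out in turn, the library left out departed from the mean of the other 13 by a median of 0.0623 to 0.0898 log2 units in the chosen genes and 0.123 to 0.184 in the window.

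**Figure D4:**
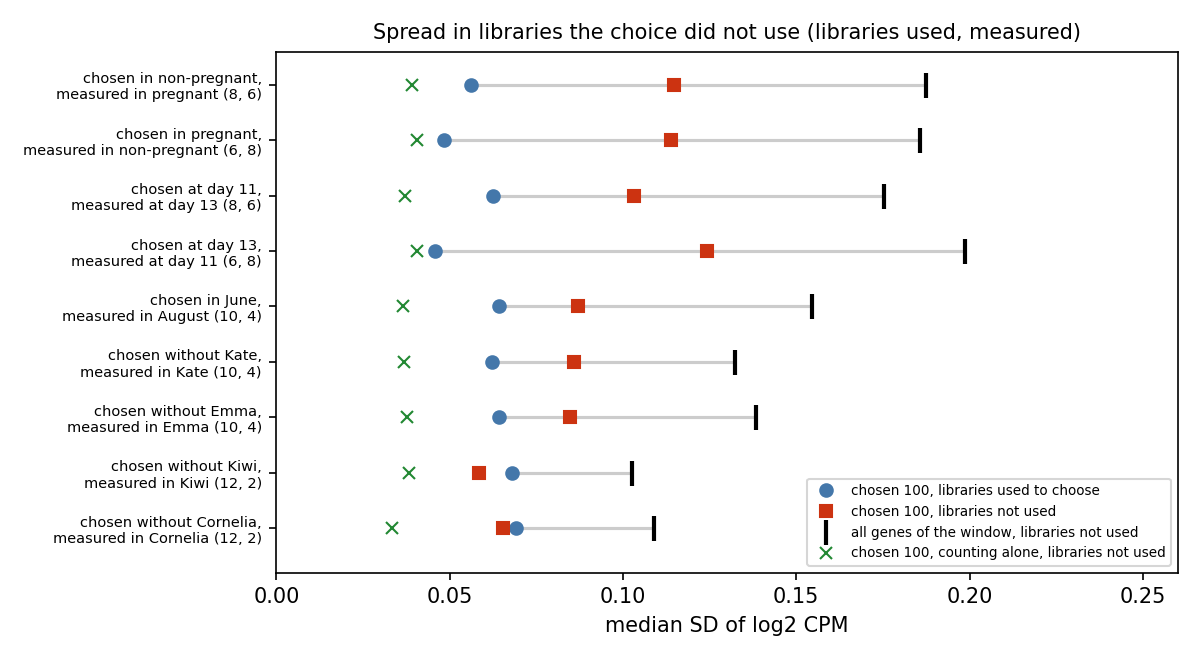
Median SD of log2 CPM of 100 genes chosen in one set of libraries, in the libraries used to choose them (circles) and in the libraries not used (squares), with the median of all window genes (bars) and of counting alone (crosses) in the latter. The squares lie from 0.0584 to 0.124, to the left of the bars in all 9 choices. In the choices without a mare, squares and bars hold only the spread inside that mare.

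Membership of the 100 was recomputed with single choices changed. With RLE size factors or upper quartile factors in place of TMM, 92 members stayed in, and with a prior count of 0.5 or 5 it was 99. With library totals alone 32 stayed, and with the SD replaced by the median absolute deviation 20 did. With mare means removed 27 stayed, and with gland means removed 23. Non-pregnant libraries alone kept 32 members and day 11 libraries alone 39. Leaving out Emma kept 48, leaving out Kate 49, and leaving out the gland of Kate with both status labels 67. When single libraries were left out, 72 to 86 members stayed, and 55 stayed in all 14 omissions.

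ENSECAG00000009007, ENSECAG00000013216 and ENSECAG00000014617 never ranked below 5 in any of the 14 omissions of a library. ENSECAG00000013216 ranked 2 with mare means removed, 14 with gland means removed and 1 with library totals alone. ENSECAG00000009007 ranked 46 with mare means removed, 70 with gland means removed and 65 with library totals alone. Only 7 members stayed among the 100 in all 14 omissions, with RLE factors, with library totals alone, with group, mare or gland means removed and by excess variance. They were the first 4 by SD and ENSECAG00000018626, ENSECAG00000032327 and ENSECAG00000023152, of ranks 10, 21 and 35. The last 3 had means of 194.9, 166.9 and 150.3 CPM. They are named because these criteria kept them, a choice made after the values were seen. Smaller sets of libraries did not keep all 7: ENSECAG00000032327 ranked 172 in non-pregnant libraries and ENSECAG00000023152 ranked 296 at day 11. The median absolute deviation, the tagwise dispersion and the omission of mares were not among the criteria. In contrast ENSECAG00000000737, of rank 9, ranked 247 with library totals alone and 184 with gland means removed.

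**Figure D5:**
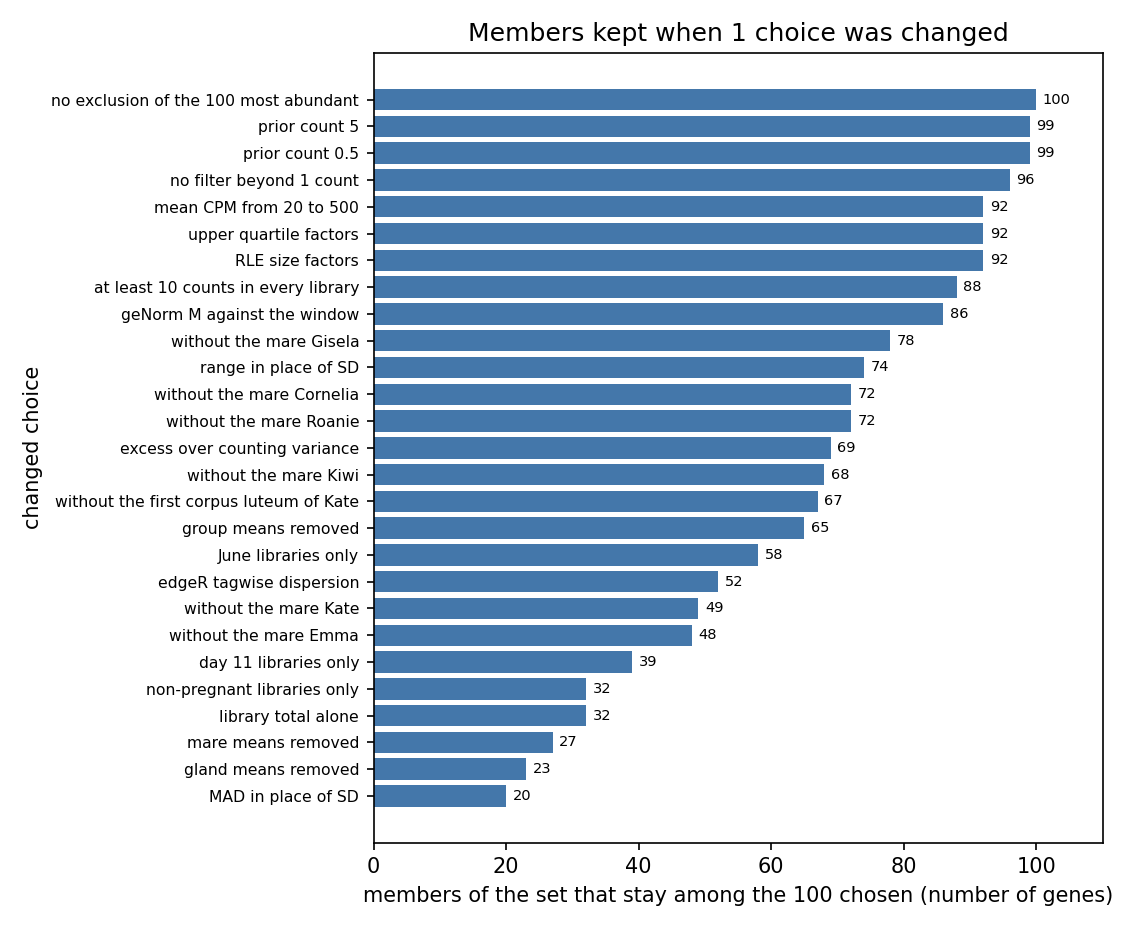
Number of the 100 members that stayed among the 100 chosen (horizontal axis, genes) when 1 choice of the processing or of the libraries was changed. It ran from 20 with the median absolute deviation to 100 when the most abundant genes were not left out. That last change could have no effect, since 0 of the 100 most abundant genes had a mean of 500 CPM or less.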

How the data were processed

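Raw gene counts were deposited for 14 libraries of luteal poly(A) RNA. Trim Galore, STAR and the build EquCab3.0 are named, without versions, per the submitters' processing notes (counting tool and annotation: not given in the sources used here). Near-identical or overlapping genes may therefore be miscounted.

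Columns were matched to samples by library name. Genes passed edgeR's filterByExpr over the 4 groups, which kept 99.974% of the counts. edgeR 4.0.16 in R 4.3.3 gave TMM factors, log2 CPM (prior count 2) and quasi-likelihood tests on all genes, with 1 mean per group, a spread shared by all 14 libraries and Benjamini-Hochberg adjustment. DESeq2 1.42.0 was an alternative. Replicate numbers follow accession order and pair nothing; mares and glands are named in the titles. Deviations of the 2 libraries of a gland from group means correlated with r from 0.03 to 0.52 across all genes. No 2 libraries were copies (chi-square per degree of freedom of at least 21.9). The tests took no account of shared mares.

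Counting variance came from the Poisson model at each gene's mean and scaled depth. Scripts were tested on simulated data. Named members are, by rule, the first 5 by SD, the steadiest in 3 ranges of CPM (10 to 50, 50 to 150, 150 to 500), ranks 99 to 102, extremes of mean, M, variance ratio and group differences, and those kept in every omission. The members and lists were chosen with earlier results of these data known. Lists of reference genes and cell markers could not be used without symbols.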

Additional observations from a re-analysis of the deposited data

Results flagged for a closer look

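In groups of 4 libraries, 69 sets of values were searched for a single library far from the other 3: the CPM of 21 named genes, the mean deviation of the members and the total count, in NP11, NP13 and P11. Chance sets apart about 1 in 20, and 1 set was. ENSECAG00000013216 was at 71.35 CPM in NP11 replicate 3, from the second gland of Kate, while the other NP11 libraries lay between 67.77 and 68.21 CPM. Over all groups that value is not the highest, since NP13 replicate 4 held 71.6 CPM.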

How the results depend on the processing

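Alternatives were listed with earlier results of these data known, and the June choice was added after the data were seen. Of 100 members, the number kept was 32 with library totals alone, 20 with the median absolute deviation and 52 by edgeR's tagwise dispersion. It was 65 with group means removed, 27 with mare means removed and 23 with gland means removed (replicate block). It was 39 in day 11 libraries, 32 in non-pregnant libraries, 48 without Emma, 49 without Kate and 58 in June libraries. These last 5 choices used fewer libraries, and the cause was not tested. The number kept was 72 to 86 when single libraries were left out and at least 67 otherwise. The median SD of the members was 0.0907 with library totals alone and 0.0706 to 0.0734 when single libraries were left out. The median M was 0.0968 to 0.0995, and 94 to 98 members exceeded counting noise, in those omissions. Of all genes, edgeR called 0 in each of the 5 tests. DESeq2 called 2 for pregnancy at day 11, 7 between days without pregnancy, 11 with it and 48 for the joint test of groups. With the gland as a replicate block edgeR called 4 and 15 between days and 11 for the joint test; pregnancy at day 11 then rests on the gland with both labels. Without that gland it called 1 and 2 between days and 2 for the joint test. Leaving out single libraries gave 0 to 1 between days with pregnancy (1 without P11 replicate 3) and 0 to 2 for the joint test (2 without NP13 replicate 1, 1 without P11 replicate 3). In these fits 0 members were called, which the rule makes likely. Spread in unused libraries was 0.612 times that of the window, and 0.563 when June libraries chose and August libraries were measured. With P13 reduced to 1 library, that library is assumed to vary like the other groups. Counting alone gives an SD of up to 0.0886 in the window, above that of every member, so steady genes of low abundance could not be told apart at this depth.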

Other observations

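Some members moved together and others in opposition; the pairs below were picked as extremes of 4950. ENSECAG00000018903 and ENSECAG00000023998 had the steadiest ratio of all pairs, with an SD of 0.0416 on the log2 scale and a Pearson correlation of 0.76 over the 14 libraries. ENSECAG00000018903 ran from 56.1 to 63.8 CPM and ENSECAG00000023998 from 81.9 to 96.0 CPM. Both were low in NP11 replicate 3 (57.0 and 81.9 CPM) and P13 replicate 1 (56.2 and 83.2 CPM), and both were high in P11 replicate 2 (63.8 and 90.4 CPM) and NP11 replicate 2 (63.4 and 96.0 CPM).

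ENSECAG00000001627 and ENSECAG00000016281 had the least steady ratio, with an SD of 0.151 and a correlation of -0.86. The first was highest, at 146.6 CPM, in P11 replicate 1 and lowest, at 119.8 CPM, in P11 replicate 3. The second was lowest in the former library, at 47.8 CPM, and highest in the latter, at 58.2 CPM. These are pregnant day 11 glands of Emma and Gisela. Taken alone the 2 genes had SDs of 0.0781 and 0.0779, so single-gene spread did not set them apart from other late members.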
